A study of Mus musculus with 8 samples.

Results

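Squamous epithelium keratins and partners were examined as a set of 8 genes, Krt5, Krt14, Krt13, Krt15, Trp63, Sfn, Anxa8 and Ly6d, among 52636 gene identifiers counted in mouse colon. They were chosen by name, and the choice was made with the levels and contrasts of these libraries in view, so their values are given as a description and support no conclusion about themselves. All 8 were found in the count table, and 5 (Krt14, Krt15, Sfn, Anxa8 and Ly6d) had enough counts to be among the 16107 genes tested. Krt5, Krt13 and Trp63 did not. The samples were colon of wild-type C57BL/6 females, 6 weeks old, described as germ-free before colonization and housed in gnotobiotic isolators. A control group of 3 libraries was set beside 3 libraries of mice gavaged with the yeast C. albicans SC5314 and 2 of mice gavaged with the yeast C. tropicalis MYA-3404, all at day 30. The libraries held 16195376 to 19761098 counts, and the labels do not say whether each was a separate mouse, so the spread between them may be technical in part.

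Stratified squamous epithelium lines skin, mouth, oesophagus, forestomach, vagina and the anal canal, which adjoins the colon. Its basal cells depend on the transcription factor p63 (Trp63) and build filaments from the type II keratin of Krt5 paired with the type I keratins of Krt14 and Krt15, while Krt13 belongs to the layers above in wet mucosa. Sfn encodes 14-3-3 sigma, an epithelial adaptor protein that holds back the cell cycle and responds to p53. Anxa8 encodes a calcium-dependent membrane-binding annexin, and Ly6d a small surface protein with a lipid anchor, found on keratinocytes and on cells of the B lineage. The colon wall is lined by a simple epithelium, whose keratins are those of Krt8, Krt18, Krt19 and Krt20.

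RefSeq promoter entries on GRCm38 were found for 5 of the 8 genes. Start-site sequences are shown for Krt5 and Krt13, which were near the limit of detection, and for Sfn and Anxa8, the most abundant of the set. Trp63, the rarest gene of the set, had no entry. A link between start-site sequence and level was not tested. Each line gives the 60 bases before the start site, 5′ to 3′ on the gene's strand, and capitals mark the run ATAAAAGG.
Krt5, chr15:101712906-101712965, minus strand: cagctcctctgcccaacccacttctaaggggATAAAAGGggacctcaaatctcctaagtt
Krt13, chr11:100121567-100121626, minus strand: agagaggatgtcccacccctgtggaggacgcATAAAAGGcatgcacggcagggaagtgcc
Sfn, chr4:133602169-133602228, minus strand: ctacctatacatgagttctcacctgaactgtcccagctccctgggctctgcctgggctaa
Anxa8, chr14:34085919-34085978, plus strand: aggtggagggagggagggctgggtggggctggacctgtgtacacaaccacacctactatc
In Krt5 and Krt13, the near-silent keratins, the run began 29 bases before the start site in both, and the 250-base windows of the other entries, Sfn, Anxa8, Krt14 and another start of Krt13, did not hold it. The Krt14 entry starts inside the gene and not at its outer end. The run was picked after these sequences had been seen. Searched on both strands, it occurred in 1.54% of 32851 promoter windows of 250 bases. The letters TATAAA (12.4% of windows), GCCNNNGGC for AP-2 (13.7%), TCCC and GGGA set 2 bases apart for EBF (0.779%) and a pair of CATG cores of p53 and p63 set 6 bases apart (0.490%) were in none of the windows of these genes.

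Of the set, Krt5, Krt13 and Trp63 were barely detected in any group. Trp63 (ENSMUSG00000022510, chromosome 16, 25683763 to 25892102) had 4 counts in all, 2 in control 2 and 2 in C. albicans 3, and 0 in each of the other 6 libraries. Krt5 (ENSMUSG00000061527, chromosome 15, 101707070 to 101712898) had 9, 2 and 1 counts in control 1, 2 and 3, 1, 7 and 3 with C. albicans, and 0 and 1 with C. tropicalis. Krt13 (ENSMUSG00000044041, chromosome 11, 100117327 to 100121566) had 6 counts in control 3, 2 in C. albicans 2, and 7 and 2 in C. tropicalis 1 and 2, and 0 in the other 4 libraries. The groups overlapped for Krt5 and Trp63, and for Krt13 in both comparisons with control. Between the species the scaled levels of Krt13 did not overlap, as for 45.9% of all tested genes. That separation rests on C. tropicalis 2 and C. albicans 2, which had 2 counts each. With 0 counts in a library, a level below 3 counts remains possible, which is 0.157 to 0.183 CPM (counts scaled by the TMM-adjusted library total), and this limit covers counting error only. Differences in these 3 genes were not detectable at this depth. These 3 genes were thus at or near the limit of detection. Krt14 and Krt15, keratins of the same basal cells as Krt5, were counted in every library, at 15 to 83 and 9 to 19 counts. The genes of the set are called by their names from here on.

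**Figure D1:**
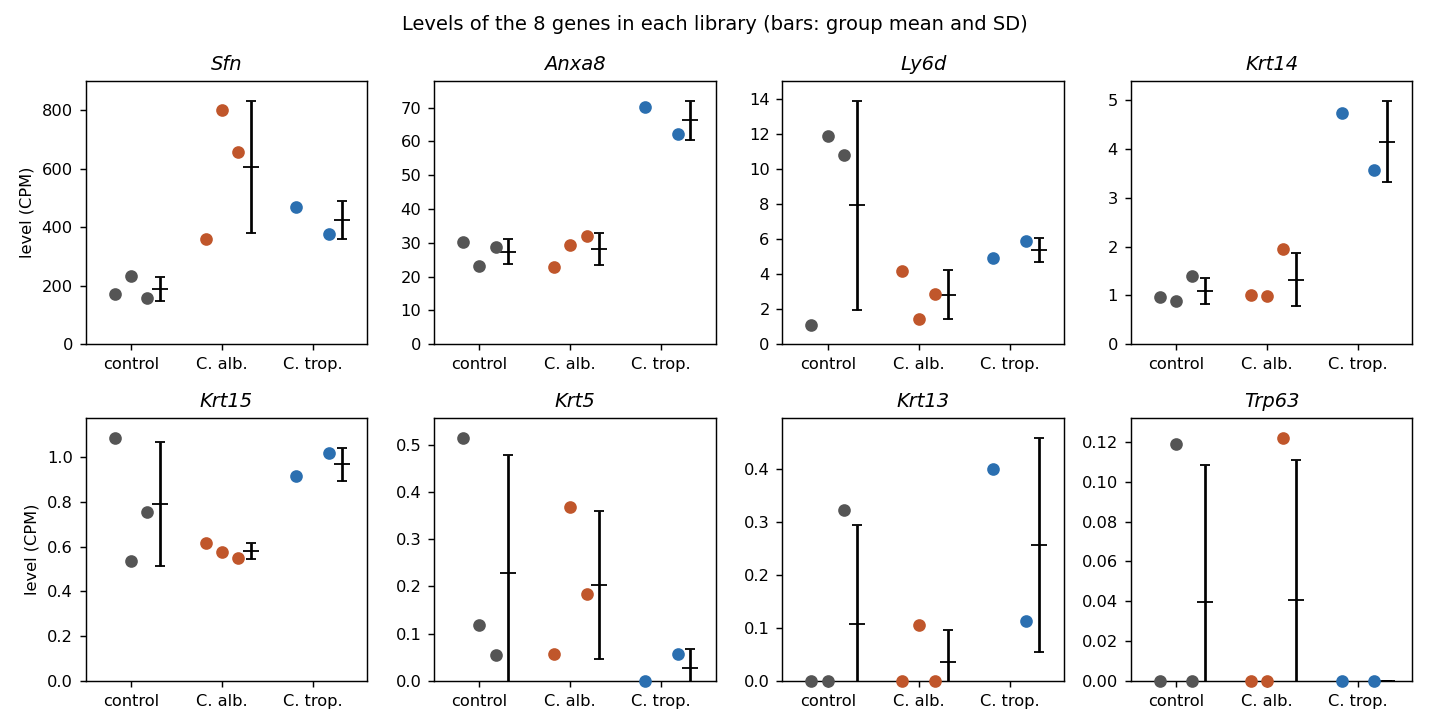
Level of each of the 8 genes in CPM with TMM-adjusted library sizes, 1 point per library, for control (n = 3), C. albicans (n = 3) and C. tropicalis (n = 2); the bar beside each group is its mean ± SD, and bars that would pass below 0 end at the axis. Each panel has its own scale: Sfn reaches 800.1 CPM, while Krt5, Krt13 and Trp63 reach at most 0.514 CPM.

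Other genes of stratified epithelium ranged from no counts, through low counts in every library, to high levels of genes that a simple epithelium also expresses. Of 35 genes of the suprabasal and cornified layers, 15 had 3 counts or fewer in every library and 9 of these had none at all, among them Ivl, Flg, Sprr3 and Dsg1a, which encode involucrin, filaggrin, a cornified envelope protein and a desmosomal cadherin. Others of that list were counted in every library at a low level. Lor, which encodes the envelope protein loricrin, had 14 to 70 counts, Sbsn 13 to 51, Dmkn 12 to 102 and Sprr1a 16 to 113, while Csta1, a protease inhibitor gene, had 1 to 103. Lor stood at 2.03 ± 1.09 CPM in controls, 2.29 ± 0.799 with C. albicans and 3.84 ± 0.180 with C. tropicalis (SD, n = 3, 3 and 2). The basal desmosomal cadherin Dsg3 had no more than 1 count in a library, and Lgals7, a galectin of keratinocytes, no more than 3. In contrast, Itgb4 and Lamb3, which anchor epithelium to its basement membrane, stood at 588.7 ± 184 and 222 ± 28.7 CPM in control colon (SD, n = 3), and the junction gene Perp at 169.9 ± 16.2. Tgm3, a transglutaminase, ranged from 465 to 2967 CPM over the libraries. Among transcription factors of squamous cells, Tfap2c had 0 counts in all 8 libraries, while Klf4, which colonocytes also use, stood at 876 ± 78.8 CPM in controls. No gene of the lists of other basal genes (16 of 22 tested), suprabasal genes (13 of 35) or squamous transcription factors (12 of 18) had an adjusted p under 0.05 in edgeR in any of the 3 contrasts. At an unadjusted p under 0.05 there were 3, 2 and 2 such genes for C. albicans against control and 9, 3 and 3 for C. tropicalis against control, and 9, 6 and 6 between the species. Over all genes tested that share was 15.4%, 15.4% and 23.2% in these contrasts.

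Markers of tissues next to the colon were listed as well. Of 11 hair follicle genes, 10 had 3 counts or fewer in every library, and the summed level of the list was 0.215 to 0.417 CPM in controls, 0.225 to 0.787 with C. albicans and 0.228 to 0.340 with C. tropicalis. Of 8 urothelium markers, 3 had 3 counts or fewer in every library, and the uroplakin gene Upk2 had 0 counts throughout. Others of that list were counted in every library, with 266 to 392 counts for Upk1a (15.0 to 23.4 CPM), 13 to 39 for Upk1b and 6 to 30 for Gata3. The skeletal muscle myosin gene Myh4 had 0 counts throughout. The skeletal muscle list summed to 16.2 to 36.5 CPM in controls, 36.9 to 79.1 with C. albicans and 13.1 to 13.5 with C. tropicalis. Mesothelial Msln was detected at 1.08 to 6.52 CPM, lowest in C. tropicalis 1.

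Among the keratins, the genes of the set were a trace beside those of simple epithelium. Per kb of exon, which allows genes to be compared, Krt8 averaged 3477 CPM per kb over the 8 libraries and Krt19 averaged 2219, against 1.10 for Krt14, 0.428 for Krt15, 0.0768 for Krt5 and 0.0646 for Krt13. Krt8, Krt18, Krt19 and Krt20 together took 99.0% to 99.6% of the summed per-kb level of the 54 keratin genes, and Krt5, Krt14, Krt13 and Krt15 together 0.0142% to 0.0451%. Of the 54, 11 had no counts and 16 were tested. The ranking of Krt14 over Krt15 held in the means of all 3 groups, at 0.619 ± 0.155 against 0.448 ± 0.157 CPM per kb in controls (SD, n = 3), within their spread, and at 2.36 ± 0.471 against 0.547 ± 0.0425 with C. tropicalis (n = 2), beyond it.

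**Figure D2:**
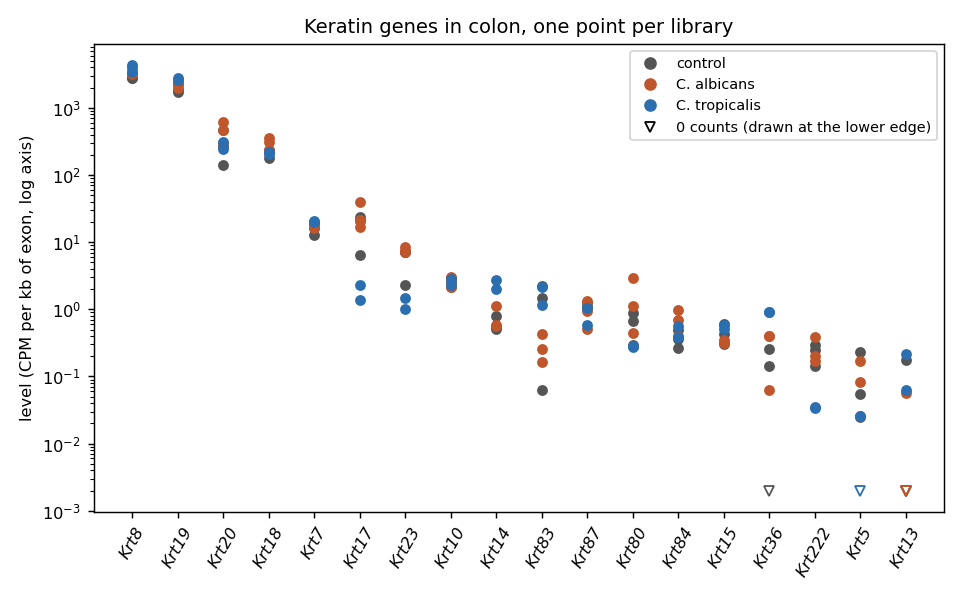
Level per kb of exon (CPM per kb, log axis) of the 16 keratin genes with a mean of at least 0.5 CPM, with Krt5 and Krt13 added; 1 point per library, coloured by group, and open triangles at the lower edge for libraries with 0 counts. Krt8 and Krt19 lie at the top and Krt5 and Krt13 at the bottom; Krt14 is highest in both C. tropicalis libraries and Krt17 lowest in them.

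Krt14 (ENSMUSG00000045545, chromosome 11, 100203162 to 100207548) encodes the type I keratin of basal cells. Its counts were 17, 15 and 26 in control 1, 2 and 3, 18, 19 and 32 with C. albicans, and 83 and 63 with C. tropicalis. These correspond to 0.971, 0.894 and 1.40 CPM, to 1.01, 0.997 and 1.95 CPM, and to 4.74 and 3.57 CPM. Both C. tropicalis libraries lay above the other 6, and the C. albicans and control libraries overlapped. The group means were 1.09 ± 0.272, 1.32 ± 0.547 and 4.15 ± 0.827 CPM (SD, n = 3, 3 and 2). The log2 fold change was 1.92 ± 0.40 (SE; 3.79-fold) for C. tropicalis against control, 1.65 ± 0.39 (3.15-fold) against C. albicans, and 0.27 ± 0.38 for C. albicans against control, where it turned to -0.087 without C. albicans 3. As a share of the per-kb level of all keratins, Krt14 made up 0.0116 ± 0.00391% in controls, 0.0111 ± 0.00386% with C. albicans and 0.0332 ± 0.00316% with C. tropicalis.

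Part of the Krt14 message cannot be told from its relatives on chromosome 11 by a short read, so a coding stretch is shown where the copies are most alike to Krt17. The lines give 75 coding bases from the GENCODE M21 transcripts, with capitals at bases that differ from Krt14.
Krt14: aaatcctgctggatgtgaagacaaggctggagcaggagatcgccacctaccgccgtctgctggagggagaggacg
Krt17: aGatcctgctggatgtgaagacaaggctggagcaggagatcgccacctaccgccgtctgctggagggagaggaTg
Krt16: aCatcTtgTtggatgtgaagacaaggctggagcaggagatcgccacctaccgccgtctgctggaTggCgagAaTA
Krt15: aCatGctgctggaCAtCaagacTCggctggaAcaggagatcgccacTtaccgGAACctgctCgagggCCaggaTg
Krt17 differed from Krt14 at 2 of the 75 bases, Krt16 at 8 and Krt15 at 17. Over the whole coding sequence, 13.3% of the 50-base words of Krt14 were also in Krt16 and 3.92% in Krt17, and none in Krt15 or Krt13. How the authors' counting treated such reads is not given in the sources used here, so Krt14 carries this uncertainty. Krt16 had at most 1.08 CPM, in control 3. Krt17, a keratin of basal and stressed epithelium, was lowest with C. tropicalis, where Krt14 was highest, with 26.1 ± 14.2 CPM in controls, 40.4 ± 19.0 with C. albicans and 2.84 ± 1.03 with C. tropicalis (SD, n = 3, 3 and 2). For Krt17 the log2 fold change was -3.19 ± 0.64 (SE) for C. tropicalis against control and -3.83 ± 0.65 against C. albicans, neither past the threshold in edgeR (adjusted p = 0.135 and 0.0646).

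Other measures also stood apart in the C. tropicalis libraries. Hoxd13, a gene of the hindmost body axis, stood at 300.3 and 220.1 CPM in C. tropicalis 1 and 2 and at 188 in control 3, and between 1.99 and 22.8 in the other 5 libraries. Krt14 in control 3 was the highest of the controls, at 1.40 CPM, and below both C. tropicalis libraries. It was higher in C. albicans 3, at 1.95 CPM, which was among the 5 libraries with low Hoxd13. Of the other positional genes, Hoxa13 ranged from 45.4 to 76.6 CPM over the libraries, Hoxb13 from 154.7 to 1034.6 and Hoxd12 from 0 to 4.68. The summed level of 10 smooth muscle markers was 6443 to 12575 CPM in controls, 9417 to 27216 with C. albicans and 3605 to 4611 with C. tropicalis. The stretch of colon sampled is not in the labels, and the part of position and of muscle content in the Krt14 values was not tested.

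**Figure D3:**
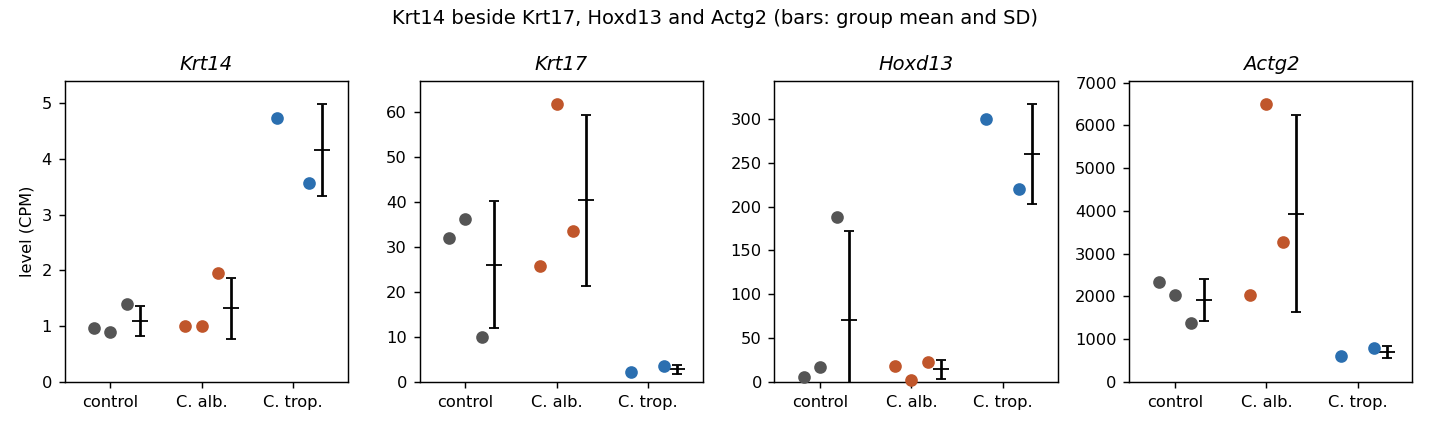
Level in CPM of Krt14, of its relative Krt17, of the positional gene Hoxd13 and of the smooth muscle actin gene Actg2, 1 point per library, with the group mean ± SD beside it (n = 3, 3 and 2; bars that would pass below 0 end at the axis). The C. tropicalis libraries are highest for Krt14 and Hoxd13 and lowest for Krt17 and Actg2, and control 3 lies toward them for Hoxd13 and Krt17.

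Krt15 (ENSMUSG00000054146, chromosome 11, 100131758 to 100135928), the type I keratin of quiescent basal cells, had 9 to 19 counts in every library. It stood at 0.791 ± 0.277 CPM in controls, 0.582 ± 0.0350 with C. albicans and 0.967 ± 0.0751 with C. tropicalis (SD, n = 3, 3 and 2). The C. tropicalis libraries lay above those with C. albicans, and the controls, at 1.09, 0.536 and 0.753 CPM, spanned both. The log2 fold changes were -0.44 ± 0.39 for C. albicans and 0.28 ± 0.41 for C. tropicalis against control, and 0.73 ± 0.42 between the species (SE). Its low counts left it out of the stricter filter on low counts.

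Sfn (ENSMUSG00000047281, chromosome 4, 133600556 to 133602168) was the most abundant gene of the set, with 57203 counts in all. It stood at 173, 234 and 158 CPM in control 1, 2 and 3, at 359.6, 800.1 and 658 CPM in C. albicans 1, 2 and 3, and at 469.6 and 377 CPM in C. tropicalis 1 and 2. Every colonized library lay above all 3 controls, and the 2 species overlapped, since C. albicans 1 was below both C. tropicalis libraries. The means were 188 ± 40.3, 606 ± 225 and 423 ± 65.3 CPM (SD, n = 3, 3 and 2). The log2 fold change against control was 1.69 ± 0.29 (SE; 3.22-fold) with C. albicans and 1.17 ± 0.31 (2.25-fold) with C. tropicalis, and -0.52 ± 0.32 between the species. The comparisons with control share the 3 control libraries. The summed smooth muscle level was 9417, 27216 and 15226 CPM in C. albicans 1, 2 and 3, the same order as Sfn. With C. tropicalis it was 3605 and 4611 CPM, below all controls, while Sfn was above them. The part of position and of muscle content in the Sfn values was not tested.

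The other 14-3-3 genes encode adaptors found in nearly all cells and differed less between groups. In control colon Sfn made up 20.8 ± 2.79% of the summed per-kb level of the 7 genes of the family (SD, n = 3). That share was 45.0 ± 9.98% with C. albicans (n = 3) and 33.2 ± 5.33% with C. tropicalis (n = 2). Among the other 6, the estimate with C. albicans was positive for 2 and negative for 4 (median log2 fold change -0.02), and with C. tropicalis it was positive for 6 (median 0.28). None of the 6 passed in edgeR; 1 with C. albicans and 2 with C. tropicalis had an unadjusted p under 0.05, beside 15.4% of all genes in both contrasts. Ywhag had the highest estimate with C. albicans, 0.56 ± 0.16 (SE), and Ywhab with C. tropicalis, 0.39 ± 0.13. Trp53, the gene of the p53 protein, differed by less than its spread, at 70.5 ± 15.1, 71.6 ± 8.39 and 79.6 ± 3.26 CPM in controls, C. albicans and C. tropicalis.

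The epithelial marker Epcam ranged only from 1299 to 1677 CPM over the 8 libraries, a 1.29-fold span, so the level of Sfn was also read against it. The ratio of Sfn to Epcam was 0.107 to 0.140 in controls, 0.252 to 0.558 with C. albicans and 0.245 to 0.323 with C. tropicalis. Because Epcam varied so little, every colonized library had to stay above the controls in this ratio. It is therefore no separate support. In bulk tissue, fewer cells of a type and less RNA per cell cannot be told apart. Klf4, a transcription factor of maturing colonocytes, had a log2 fold change of 0.83 ± 0.17 with C. albicans and 0.60 ± 0.18 with C. tropicalis (SE; adjusted p = 0.129 and 0.236 in edgeR). In the reference transcripts 15.0% of the 50-base words of Sfn were shared with other genes, most of them with the pseudogene Gm7850, so its count may hold or lack some ambiguous reads.

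Anxa8 (ENSMUSG00000021950, chromosome 14, 34085981 to 34100571) was highest with C. tropicalis. It stood at 30.3, 23.1 and 28.8 CPM in control 1, 2 and 3 and at 22.9, 29.4 and 32.1 CPM in C. albicans 1, 2 and 3, ranges that overlap almost whole. In C. tropicalis 1 and 2 it stood at 70.2 and 62.2 CPM, above all 6 other libraries. The means were 27.4 ± 3.78, 28.1 ± 4.75 and 66.2 ± 5.67 CPM (SD, n = 3, 3 and 2). The log2 fold change was 1.27 ± 0.18 (SE; 2.42-fold) for C. tropicalis against control, 1.24 ± 0.18 (2.35-fold) against C. albicans, and 0.04 ± 0.16 for C. albicans against control. By p-value in edgeR Anxa8 ranked 8 of 16107 genes in both contrasts of C. tropicalis, neither past the threshold (adjusted p = 0.0862 against control and 0.0646 against C. albicans). The value 0.0646 was the lowest adjusted p of any gene in that contrast and was shared with other genes, among them Krt17. The rank is a description only, since the gene was chosen with these contrasts in view. Hoxd13 was highest and the summed smooth muscle level lowest in the same C. tropicalis libraries, and their part in the Anxa8 values was not tested. A630023A22Rik lies over Anxa8 on the opposite strand and had 240 counts in all, against 5275 for Anxa8; the library kit does not keep the strand.

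Among the other annexins, a family that binds phospholipid membranes when calcium rises, Anxa1 came closest to Anxa8 in pattern. Anxa1 stood at 159.6 ± 4.0 CPM in controls, 159.9 ± 11.3 with C. albicans and 275.5 ± 6.18 with C. tropicalis (SD, n = 3, 3 and 2). Its log2 fold change for C. tropicalis was 0.79 ± 0.12 (SE) against control and 0.78 ± 0.12 against C. albicans, with adjusted p of 0.104 and 0.0646 in edgeR. For Anxa2, the most abundant of the family per kb, the estimates were 0.53 ± 0.16 and 0.50 ± 0.16 (adjusted p = 0.228 and 0.108). Of 10 other annexins tested, 7 lay above control with C. tropicalis and 3 below (median 0.17, against -0.02 over all genes tested), none past the threshold and 3 at an unadjusted p under 0.05, beside 15.4% of all genes. The ratio of Anxa8 to Anxa1 was 0.141 to 0.193 in controls, 0.153 to 0.203 with C. albicans and 0.229 to 0.251 with C. tropicalis. Anxa8 made up 3.00 ± 0.596% of the per-kb annexin level in controls and 5.48 ± 0.471% with C. tropicalis.

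Ly6d (ENSMUSG00000034634, chromosome 15, 74762056 to 74763620) had the largest SD relative to its group mean among the 5 tested genes, in the controls. It stood at 1.09 CPM in control 1 but at 11.9 and 10.8 in control 2 and 3, at 4.22, 1.42 and 2.87 in C. albicans 1, 2 and 3, and at 4.91 and 5.89 in C. tropicalis 1 and 2. The colonized libraries of both species thus lay inside the span of the controls, while both C. tropicalis libraries were above the 3 with C. albicans. The means were 7.94 ± 5.96, 2.83 ± 1.40 and 5.40 ± 0.694 CPM (SD, n = 3, 3 and 2). The log2 fold changes were -1.49 ± 0.72 for C. albicans and -0.55 ± 0.79 for C. tropicalis against control, and 0.93 ± 0.78 between the species (SE). Without control 1 the first of these was -2.00 and without control 2 it was -1.04.

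B cell markers moved with Ly6d library by library. Of all tested genes, the one whose log2 CPM was most like that of Ly6d over the 8 libraries was Cd79a, a chain of the B cell receptor complex (Pearson r = 0.985), followed by Treml2 (0.985) and Ptprcap (0.982). These are descriptions over libraries that also differ in group and tissue content. Ly6d ranged from 1.09 to 11.9 CPM over the libraries and Cd79a from 5.72 to 101.7 CPM, a 17.8-fold span. The ratio of Ly6d to Cd79a lay between 0.117 and 0.248, a 2.12-fold span. Since Cd79a was the gene most like Ly6d in these libraries, a narrower span of the ratio follows from that likeness. The 10 B cell markers summed to 20.9 to 293 CPM in controls, 15.2 to 70.8 with C. albicans and 71.4 to 99.9 with C. tropicalis, and none was at 0 in any library. Of them 10 lay below control with C. albicans and 10 with C. tropicalis (median -1.94 and -1.10), none past the threshold, and 5 and 1 at an unadjusted p under 0.05, beside 15.4% of all genes in both contrasts. The part of B cell content in the Ly6d values was not tested.

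**Figure D4:**
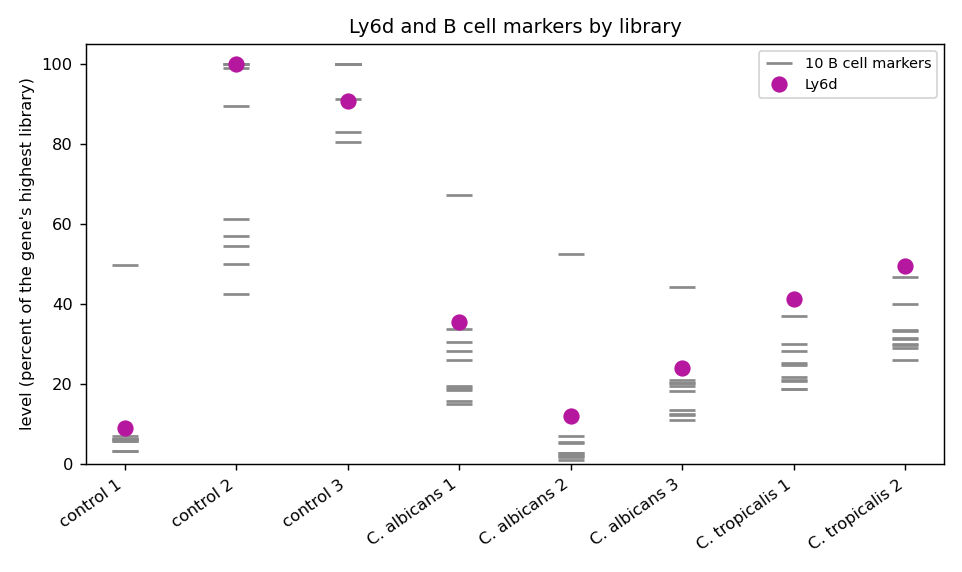
Level of Ly6d (filled circles) and of 10 B cell markers (bars) in each library, each gene as a percentage of its own highest library. Control 2 and control 3 hold the highest values and control 1 and C. albicans 2 the lowest for Ly6d; the bar that stands apart in control 1 and the C. albicans libraries is Ebf1, which other cells of the gut wall also express.

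Other genes of the Ly6 family were measured beside Ly6d. Lypd8, which encodes a colonocyte protein that keeps bacteria from the epithelium, stood at 9203 ± 1737 CPM in controls, 7456 ± 963 with C. albicans and 9186 ± 179 with C. tropicalis (SD, n = 3, 3 and 2). Ly6e stood at 365 ± 56.1, 356 ± 54.4 and 394 ± 6.23 CPM, and Ly6g at 111 ± 74.2, 85.0 ± 67.5 and 229 ± 6.62. Of 12 Ly6 and related genes tested, none passed in edgeR in any contrast, with 1 and 2 at an unadjusted p under 0.05 against control for C. albicans and C. tropicalis, beside 15.4% of all genes in both.

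The 5 tested genes did not vary as a block. The highest library was C. albicans 2 for Sfn, C. tropicalis 1 for Anxa8 and Krt14, control 1 for Krt15 and control 2 for Ly6d. The genes nearest to each in pattern, by Pearson r of log2 CPM over the 8 libraries, were different ones. These genes were picked as the closest of all genes tested over only 8 libraries, so their high r follows in part from the choice. For Sfn they were Rhof (r = 0.994), a small GTPase of actin protrusions, Ipo13 (0.987), a nuclear transport receptor, and Stim2 (0.986), a calcium sensor of the endoplasmic reticulum. The ratio of Sfn to Rhof was 6.71 to 7.01 in controls, 7.98 to 10.3 with C. albicans and 8.55 to 8.61 with C. tropicalis. Sfn itself spanned 5.08-fold. Since Rhof was picked for its likeness to Sfn, a narrower span of the ratio follows from that choice. For Anxa8 they were Lonrf3 (0.974), E2f3 (0.960) and Anxa1 (0.957, but 0.306 after the group means were removed). They were for Krt14 Zbtb14 (0.973), 4930447N08Rik (0.968) and Lonp1 (0.967), and for Krt15 Hook3 (0.970), Nup155 (0.957) and Duox1 (0.955). For the mean of all 8 scaled genes, which includes 3 at the limit of detection, the closest were Fam217b (0.978) and Lonrf3 (0.966).

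**Figure D5:**
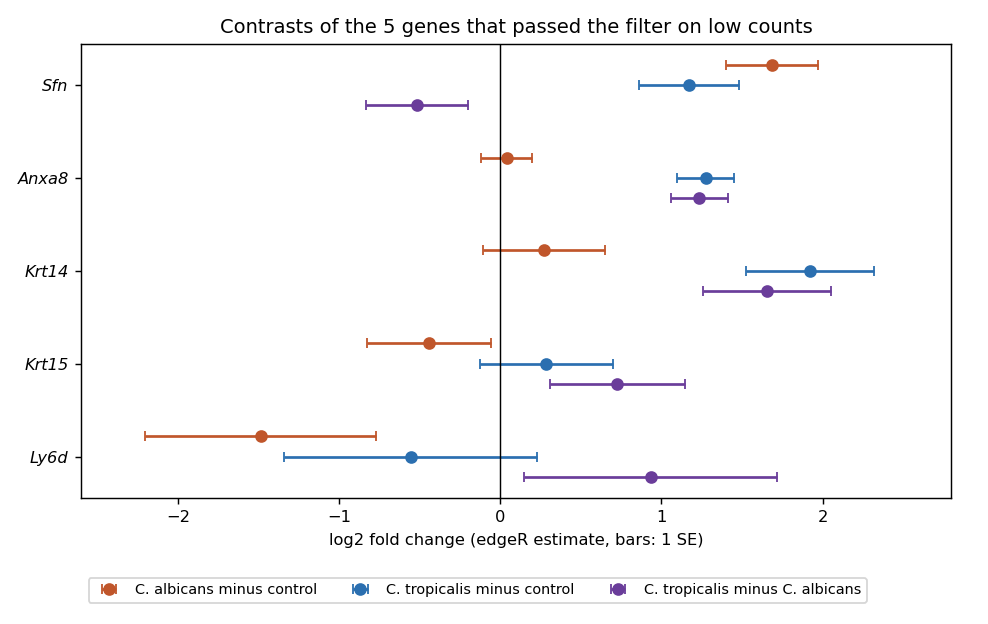
Log2 fold change of the 5 tested genes in the 3 contrasts, as edgeR estimates with bars of 1 SE. Sfn lies to the right of 0 against control for both species, Anxa8 and Krt14 for C. tropicalis against either other group, and the bars of Ly6d are the widest.

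None of the 5 had an adjusted p under 0.05 in edgeR's quasi-likelihood test in any contrast. Of all genes, edgeR called 0.0435% for C. albicans against control, 0.031% for C. tropicalis against control and 0% between the species. At an unadjusted p under 0.05 there were 1, 3 and 2 of the 5, beside 15.4%, 15.4% and 23.2% of all genes. DESeq2 called 1 (Sfn), 3 (Krt14, Sfn and Anxa8) and 2 (Krt14 and Anxa8), beside 2.86%, 2.44% and 10.8% of all genes. The lowest adjusted p of the 5 in edgeR was 0.0932 (Sfn), 0.0862 (Anxa8) and 0.0646 (Anxa8) in the 3 contrasts. The last of these was also the lowest of any gene between the species. Groups did not overlap for 1, 3 and 4 of the 5 genes, where 19.4%, 32.5% and 45.9% of all tested genes did not. The median log2 fold change of the 5 was 0.04, 1.17 and 0.93, against -0.02, -0.02 and 0.04 over all genes tested. Since these contrasts were in view when the genes were chosen, nothing is read from these counts.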

How the data were processed

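Counts are whole numbers of reads per Ensembl gene that the authors deposited for 8 colon libraries in 1 table, with no normalization. Per the submitters' processing notes, the tools were TopHat2 2.0.12, DESeq 1.18.0 and HTSeq, whose version is entered as 6.1, on build mm10. The annotation used for counting is not given in the sources used here, nor is any read filter. Per the labels' protocols, the kit for library construction was NEBNext Ultra RNA, which does not mark strand. Symbols, positions and exon lengths came from GENCODE M21 on the same build (52489 identifiers found, 147 not). The 7 pairs of libraries within groups differed by 19.3 to 73.5 times counting noise (chi-square per degree of freedom), so none is a repeat deposit of another; whether they are separate mice is not shown by this.

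Tests used edgeR 4.0.16 under R 4.3.3 (TMM, filterByExpr on the 3 groups, 1 quasi-likelihood fit of 8 libraries, Benjamini-Hochberg over 16107 genes, threshold 0.05), a step tested on simulated data. SE is the log2 fold change divided by the square root of F. CPM uses TMM-adjusted library sizes; likeness uses log2 CPM with a prior count of 2. Alternatives were DESeq2 1.42.0, other size factors and filters, only the 2 groups compared, a replicate block and each library left out. Named genes are the 8, up to 4 abundant genes of each list, keratins of at least 0.5 CPM and the genes nearest in pattern. A few more are named for being at 0 or for their paralogy. The genes and lists were chosen with earlier results of these data known.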

Additional observations from a re-analysis of the deposited data

How the results depend on the processing

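No gene of the set had a call to lose, and of 207 recomputed log2 fold changes 186 kept their direction and side of the threshold, 18 newly passed it and 3 changed sign. Those 3 were small: for C. albicans against control, Krt14 was -0.087 without C. albicans 3 (range without 1 library -0.087 to 0.49) and Anxa8 was negative without control 2 or without C. albicans 3 (range -0.044 to 0.20). Among the 186, Krt15 with DESeq2 for C. tropicalis against control had no adjusted p and was counted as not passing. Leaving out 1 library moved 8 of the 9 group means of Krt5, Krt13 and Trp63 by over 1.5 times, for example Krt5 in controls from 0.229 to 0.0865 CPM without control 1, Krt13 in controls from 0.108 to 0 without control 3 and Trp63 in controls from 0.0397 to 0 without control 2, and 0 of the 15 group means of the tested genes. With DESeq2 the genes of the set that passed were 1 for C. albicans and 3 for C. tropicalis, each against control, and 2 between species, with no filter on low counts 1, 1 and 2, and with only the 2 groups compared 1 (Anxa8) between the species. Leaving out 1 library gave 0 to 1 (Sfn, without C. albicans 1), 0 to 1 (Anxa8, without control 3) and 0 to 2 (Krt14 and Anxa8 without control 1 or control 3, Anxa8 without C. albicans 1). Over all genes, calls numbered 7, 5 and 0; they were 461, 393 and 1737 with DESeq2, 119, 71 and 1127 with no filter, and 0 (C. tropicalis against control) and 858 (between species) with only 2 groups. Without 1 library they ran from 0 to 254, 0 to 192 and 0 to 1315. With the replicate number as a block they were 0, 0 and 0, and 0 of the set passed. The 7 same-numbered pairs had deviations from group means correlated at -0.392 to 0.156 and 14 other pairs at -0.295 to 0.362. With so few libraries per group, the deviations are tied to one another. These correlations therefore cannot show whether same-numbered samples share more than a number. The cause of these differences in calls was not tested. Depth limits Krt5, Krt13, Trp63 and Krt15 most.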
